A study of Mus musculus with 6 samples.

Results

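Connexins and pannexins, the channel proteins through which neighbouring cells exchange ions and small molecules and release ATP, were examined in the bulk RNA-seq of sorted corneal keratocytes. The 8 genes were Gja1, Gja4, Gja5, Gjb2, Gjb5, Gjc1, Panx1 and Panx3, out of 17606 genes in the table, and all 8 had a row. They were chosen from the counts and TPM of the Ptch1-ablated libraries against the control libraries, so their own differences between the groups are a description without a test. Of the 8, 7 passed the filter on low counts and Panx3 did not. The Ptch1-ablated keratocytes came from Prrx1-CreERT;Ptch1 f/f mice, in which tamoxifen switches on a Cre recombinase expressed from Prrx1, and the control keratocytes came from age-matched control mice whose genotype the labels do not give further. Mice of both groups were 10 weeks old, received 3 doses of tamoxifen and were sampled 1 month later, with 3 libraries per group. Prrx1-CreERT also recombines in the corneal endothelium and in other mesenchyme of the eye, the markers used for sorting are not given, and the labels do not say how many animals went into a library. The p-values therefore measure the spread between these libraries only.

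Connexins assemble as hexamers in the plasma membrane, and docking of hexamers from adjacent cells forms a gap junction. Keratocytes lie between the collagen lamellae of the stroma and touch each other through long processes, where gap junctions made chiefly of the product of Gja1 couple them into a network. Pannexins form related channels that do not dock and are best known as a route for ATP out of the cell, where it acts on purinergic receptors. In the cornea several connexins of the Gjb class belong mainly to the epithelium, whereas Gja4, Gja5 and Gjc1 are known from blood vessels.

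The promoters of the 3 genes whose control and ablated libraries did not overlap (Gja1, Gja4 and Gjb5) are shown as the 250 bases before the annotated start, 5′ to 3′ on the strand of the gene, from RefSeq on GRCm38.p6. They lie at chr10:56377050-56377299 on the plus strand, chr4:127314040-127314289 on the minus strand and chr4:127358165-127358414 on the minus strand. Capitals mark matches to the motifs described after them.
Gja1: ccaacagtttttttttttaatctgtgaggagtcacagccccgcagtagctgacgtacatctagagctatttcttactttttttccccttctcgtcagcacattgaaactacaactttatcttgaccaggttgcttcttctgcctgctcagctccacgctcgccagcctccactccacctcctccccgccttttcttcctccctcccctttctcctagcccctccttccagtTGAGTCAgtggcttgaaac
Gja4: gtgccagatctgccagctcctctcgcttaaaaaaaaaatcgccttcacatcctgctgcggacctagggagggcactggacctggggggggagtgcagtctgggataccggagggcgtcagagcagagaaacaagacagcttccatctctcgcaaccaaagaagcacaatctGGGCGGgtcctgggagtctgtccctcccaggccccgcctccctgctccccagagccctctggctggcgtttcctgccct
Gjb5: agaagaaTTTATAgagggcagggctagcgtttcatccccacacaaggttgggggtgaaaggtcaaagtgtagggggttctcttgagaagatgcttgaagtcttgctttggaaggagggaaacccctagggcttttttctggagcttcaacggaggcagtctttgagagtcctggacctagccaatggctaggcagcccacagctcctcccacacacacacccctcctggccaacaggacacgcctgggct
The windows searched ran from 250 bases before to 50 after the start and were available for 6 of the 8 genes, Gjc1 and Panx3 not being among them. Both strands were searched for 4 motifs that do not overlap one another in these windows. The Gli motif GACCACCCA, bound by the transcription factors at the end of the Hedgehog pathway, was held by 0.253% of 32851 promoters and by none of the 6. The AP-1 motif TGACTCA was held by 5.2% of promoters and by Gja1, in reverse complement and beginning 19 bases before the start. The GC box GGGCGG, found in 35.7% of promoters, stood in Gja4 at 79 bases before the start and also in Gja5 and Gjb2. The TATA box TATAAA, found in 13.6%, stood in Gjb5 in reverse complement, 243 bases before the start. The GC content was 47.7% for Gja1, 62.0% for Gja4 and 54.3% for Gjb5, against a median of 52.7% over all promoters. These matches describe the letters in the windows and not binding.

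Library totals ran from 20258439 to 24788063 counts, and a count of 0 allows up to 3 counts, worth between 0.121 and 0.158 CPM. CPM is counts per 1000000 of the library total scaled by TMM, and this limit covers counting error only. Control replicate 1 and Ptch1-ablated replicate 2 stood apart from the other libraries on the second principal component, which held 22.2% of the variance, against 45.1% on the first. Gene totals of Ptch1 cannot resolve a deleted exon and were higher in the ablated libraries, at 185, 221 and 251 CPM against 7.89, 5.47 and 16.2. The Hedgehog targets Gli1 and Hhip were also far above control in all 3 ablated libraries. Keratocyte markers were abundant, with a summed TPM between 75814 and 83646 in control keratocytes and between 50264 and 55131 in the ablated libraries, and 5 of the 7 tested were called lower.

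Gja1, which encodes the main keratocyte gap junction protein, was by far the most abundant connexin, and its level in Ptch1-ablated keratocytes was 50.9% of control. The control libraries had 5310, 5631 and 8022 counts, or 244, 296 and 351 CPM. The ablated libraries had 3298, 3508 and 4068 counts, or 141, 149 and 164 CPM. All 3 ablated libraries lay below all 3 controls. The mean level was 297 ± 53.8 CPM in control and 151 ± 11.7 CPM in ablated keratocytes (SD, n = 3), a log2 fold change of -0.97 ± 0.16 (SE). The difference was -1.09 with control replicate 1 and ablated replicate 2 left out. In these bulk samples fewer cells of a type and less RNA per cell cannot be told apart, for Gja1 as for every gene below.

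Gja4, a connexin best known from arterial endothelium, had 295, 339 and 339 counts in control keratocytes and 537, 699 and 483 in the ablated libraries. These corresponded to 13.5, 17.8 and 14.8 CPM against 22.9, 29.7 and 19.4 CPM. The lowest ablated library was above the highest control, though by little. The means were 15.4 ± 2.2 and 24.0 ± 5.22 CPM (SD, n = 3), with a log2 fold change of 0.64 ± 0.27 (SE). It was 0.37 without control replicate 1 and ablated replicate 2, the second of which had the highest level.

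Gjb5, a connexin of stratified epithelia, was not detected in any control library, with 0 counts in each, and had 141, 85 and 143 counts in the ablated libraries. In CPM the ablated libraries stood at 6.01, 3.61 and 5.76, with a mean of 5.13 ± 1.32 (SD, n = 3). Against the limit that a count of 0 allowed in the shallowest control library, 0.158 CPM, the level was at least 32.5-fold higher. Gjb5 was therefore present in all 3 ablated libraries and under the limit in all 3 controls, a level far under that of Gja1.

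Gjc1, a connexin of vascular mural and endothelial cells, had 0, 21 and 69 counts in control keratocytes and 67, 122 and 199 in the ablated libraries. The levels were 0, 1.10 and 3.02 CPM against 2.86, 5.18 and 8.01 CPM. The highest control exceeded the lowest ablated library, so the groups overlapped. The means were 1.38 ± 1.53 and 5.35 ± 2.58 CPM (SD, n = 3), with a log2 fold change of 1.95 ± 1.14 (SE). With 1 library left out it ran from 1.37 (without control replicate 1) to 3.28 (without control replicate 3). It was 1.39 without control replicate 1 and ablated replicate 2.

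Gja5, a connexin of arterial endothelium, was detected in only some libraries. Its counts were 0, 0 and 28 in control keratocytes and 68, 0 and 84 in the ablated libraries. The means were 0.409 ± 0.708 and 2.09 ± 1.83 CPM (SD, n = 3), and the ablated library at 0 overlapped the controls. The log2 fold change was 2.33 ± 1.85 (SE). In fits that left out 1 library it ran from 1.75 to 8.56, the highest without control replicate 3, the only control with a count, where the remaining controls are at 0 and the fitted value is no bound.

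Gjb2, a connexin of epithelia and of the inner ear, showed the same scatter, with 50, 6 and 0 counts in control keratocytes and 82, 0 and 62 in the ablated libraries. Its means were 0.870 ± 1.24 and 2.0 ± 1.80 CPM (SD, n = 3) and the groups overlapped. The log2 fold change of 1.19 ± 1.67 (SE) was lowest without ablated replicate 1, at 0.53, and highest without control replicate 1, at 3.65, when 1 library was left out, and was 0.61 without control replicate 3 and 4.25 without control replicate 1 and ablated replicate 2.

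The pannexins were low. Panx1, the widely expressed ATP-releasing pannexin, had 67, 71 and 2 counts in control keratocytes and 157, 12 and 45 in the ablated libraries. Levels of 3.07, 3.73 and 0.0876 CPM stood against 6.69, 0.510 and 1.81 CPM, so that the groups overlapped widely. The log2 fold change was 0.39 ± 1.16 (SE), and it was -0.97 without ablated replicate 1 and -0.18 without control replicate 3. Panx3, known from osteoblasts, cartilage and skin, had 2, 0 and 0 counts in control keratocytes and 0, 0 and 10 in the ablated libraries, at or under the limit in 5 of the 6, and no fold is given.

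**Figure D1:**
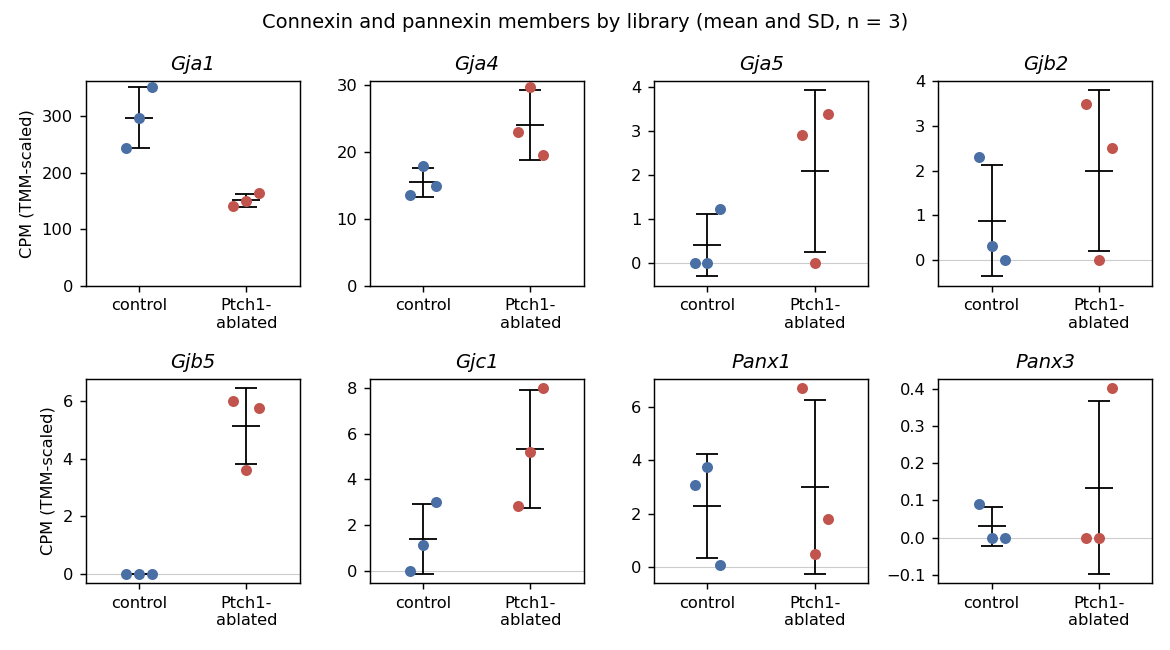
Level of each of the 8 genes in every library, in CPM relative to the TMM-scaled library total (vertical axes, linear and separate for each gene), for control (blue) and Ptch1-ablated (red) keratocytes. Points are libraries, and the horizontal mark and bars are the mean and SD (n = 3). The groups lie apart for Gja1, which was lower, and for Gja4 and Gjb5, which were higher, and they overlap for the other 5 genes.

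Of the 7 tested genes, 6 had a positive and 1 a negative log2 fold change, with a median of 1.19, against a median of 0.0046 over the 13888 genes tested, of which 7001 were above and 6887 below 0. Gjb5 was the only gene of the 7 that passed the call rule (a fold change of 2 or more, with an adjusted p from edgeR not above 0.05), where 5.49% of all tested genes were called, 3.36% higher and 2.13% lower. At the same adjusted p without a minimum fold, 2 of the 7 passed, Gja1 being the second, where 8.48% of all genes passed. Of the 7, 3 had groups that did not overlap, where the share over all genes was 27.4%. The 8 genes were chosen on this contrast, so nothing is read from these counts.

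The other connexins and pannexins serve as the remainder of the family. Of 11 listed, 6 were in the table, 2 of which were tested (Gjb1 and Gjc3), with a median log2 fold change of -0.24. By edgeR 0 were called and 0 had an unadjusted p under 0.05, and DESeq2 and limma likewise called 0. Gja3, Gja10, Gjb6, Gjd2 and Gjd4 were not analysed here.

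Gjc3, a connexin of myelinating glia, had a difference of -0.49 ± 0.46 (log2, SE; edgeR adjusted p = 0.625), and of -0.19 to -0.70 when 1 library was left out. Gjb1, the liver connexin that Schwann cells also use, was scattered in both groups, from 0 to 30 counts in control keratocytes and from 0 to 54 in the ablated libraries. Its difference of -0.00078 ± 1.71 (log2, SE; edgeR adjusted p = 1.00) had no settled direction, and ran from -2.73 to 0.80 when 1 library was left out. Gja6, Gjd3, Gje1 and Panx2 did not pass the filter, with means of at most 0.83 CPM in either group.

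Levels were compared between the reported genes on the TPM scale, which corrects for transcript length. In the controls the order was Gja1 at 207 ± 41.6 TPM, Gja4 at 21.1 ± 2.94, Gjc3 at 4.65 ± 0.939 and Panx1 at 2.46 ± 2.08 (SD, n = 3), and the others were under 2 TPM. All control libraries of Gja1 were above those of Gja4, and all of Gja4 above those of Gjc3, whereas the libraries of Gjc3 and Panx1 overlapped. In the ablated libraries the order was Gja1 at 122 ± 8.61 TPM, Gja4 at 38.5 ± 10.4, Gjb5 at 7.99 ± 1.75, Gjc1 at 6.93 ± 3.15 and Gjc3 at 3.79 ± 1.38. Here Gja1, Gja4 and Gjb5 were in that order in every library, while the libraries of Gjb5 and Gjc1, and of Gjc1 and Gjc3, overlapped.

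The summed TPM of the reported connexins was 237 ± 44.1 in control and 185 ± 12.6 in ablated keratocytes (SD, n = 3). On this scale the groups overlapped, by 194 TPM in control replicate 1 and 197 TPM in ablated replicate 2. Gja1 gave 86.0, 86.5 and 88.5% of the sum in control keratocytes and 64.9, 64.3 and 68.2% in the ablated libraries, or 87.0 ± 1.34% against 65.8 ± 2.1%. The reported connexins other than Gja1 summed to 27.2, 31.7 and 32.4 TPM in control keratocytes and to 60.4, 70.4 and 58.9 TPM in the ablated libraries. Neither the share of Gja1 nor the sum of the others overlapped between the groups, and as values over genes mostly chosen on this contrast they carry no test. TPM placed the median of all genes higher in the ablated libraries by 0.192 on the log2 scale with a pseudocount of 1, a shift that touches the sums but not the shares. The sums were not corrected for it, so their overlap is not read as an unchanged total.

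**Figure D2:**
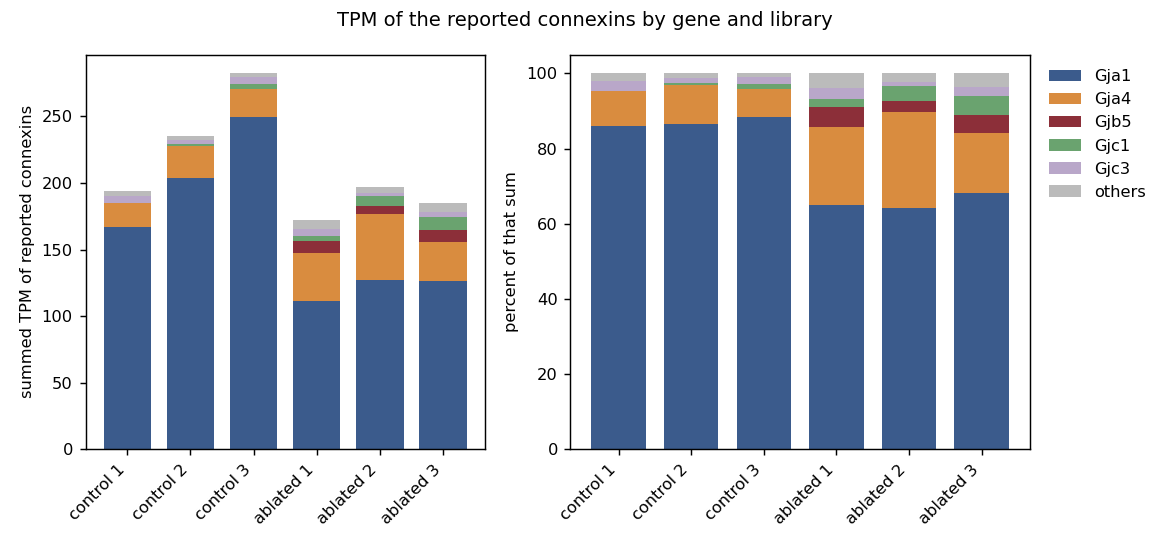
TPM of the reported connexins in each of the 6 libraries, stacked by gene, as sums (left, TPM) and as percent of that sum (right). Gja1 gave 86.0 to 88.5% of the sum in control keratocytes and 64.3 to 68.2% in the ablated libraries, where Gja4, Gjb5 and Gjc1 took larger parts.

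Genes near the 8 were read from the same fit. The 3 nearest genes of the table on each side numbered 40 among those reported here, of which 29 were tested. Their median log2 fold change was 0.04, with 17 above and 12 below 0. Of the 29, 1 was called, where 5.49% of all genes tested were called. The gene called was Csmd2, which encodes a large membrane protein with complement-type domains and follows Gjb5 on chromosome 4 in the RefSeq gene order. Csmd2 had 4, 16 and 16 counts in control keratocytes and 593, 983 and 521 in the ablated libraries. It rose from 0.575 ± 0.346 to 29.3 ± 10.97 CPM (SD, n = 3), a log2 fold change of 5.67 ± 0.53 (SE) with an edgeR adjusted p of 2.94e-05, and passed in all 16 alternatives.

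In control keratocytes Csmd2 thus had at most 16 counts and Gjb5 none, and both were present in all 3 ablated libraries. Beyond Csmd2, Zscan20 differed by 0.79 (edgeR adjusted p = 0.587) and Tlr12 was too low to test. Near Gja4, Tmem35b differed by 0.04 (edgeR adjusted p = 0.977) and Zmym6 by 0.02 (edgeR adjusted p = 0.986) on the log2 scale. Siae, a sialic acid esterase near Panx3, fell by 0.83 on the log2 scale (SE 0.21, edgeR adjusted p = 0.0277), under the minimum fold, and passed in 8 of the 16 alternatives, not among them the fit without control replicate 1 and ablated replicate 2 (0.125).

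Channels were set beside the proteins that anchor and assemble gap junctions. Of 17 such genes, 16 were tested, with a median log2 fold change of 0.32, 13 above and 3 below 0, and 0 were called by edgeR. An unadjusted p under 0.05 was reached by 8 (2854 of all 13888 genes did). The adjusted p without a minimum fold was passed by 3, where 8.48% of all genes passed. DESeq2 called 0 and limma on log2(TPM + 1) called 2 (Dbn1 and Tjp1). Tjp1, the ZO-1 scaffold that binds the tail of the Gja1 product, had 82.6, 72.4 and 56.5 CPM in control keratocytes and 109, 170 and 141 CPM in the ablated libraries. It rose by 0.99 ± 0.20 on the log2 scale (SE, edgeR adjusted p = 0.00945), just under the minimum fold, and passed that adjusted p in all 16 alternatives.

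Dbn1, the actin-binding drebrin that also binds the Gja1 product, rose from 21.6 ± 6.91 to 41.4 ± 5.65 CPM (SD, n = 3; log2 fold change 0.94 ± 0.26, edgeR adjusted p = 0.0474). Erp29, an endoplasmic reticulum chaperone that holds the Gja1 product unassembled, fell from 100.1 ± 10.2 to 60.9 ± 7.32 CPM (log2 fold change -0.72 ± 0.17, edgeR adjusted p = 0.0224). Each of these passed in 10 of the 16 alternatives, and without control replicate 1 and ablated replicate 2 the adjusted p was 0.0146 for Dbn1 and 0.0756 for Erp29. Cdh2, the N-cadherin that assembles with gap junctions, differed by 0.77 ± 0.42 (edgeR adjusted p = 0.346), with overlapping groups. It was 1.40 (edgeR adjusted p = 0.0583) without control replicate 3, 0.47 without control replicate 1 and 0.31 without control replicate 1 and ablated replicate 2.

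Genes of ATP release, breakdown and sensing surround the pannexins and open connexin hexamers. Of 28 listed, 27 were in the table and 20 were tested, with a median log2 fold change of 0.25, 12 above and 8 below 0. Of the 20, 1 was called, where 5.49% of all genes tested were called. Nt5e, the ectoenzyme that makes adenosine from AMP, had 3.58, 3.84 and 3.11 CPM in control keratocytes and 10.9, 9.94 and 10.1 CPM in the ablated libraries. It rose by 1.55 ± 0.40 on the log2 scale (SE, edgeR adjusted p = 0.0334), with the groups well apart, and passed in 8 of the 16 alternatives. Without control replicate 1 and ablated replicate 2 its adjusted p was 0.0555.

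Entpd1, the ectoenzyme that breaks ATP and ADP down to AMP, had 257, 309 and 304 CPM in control keratocytes and 161, 159 and 194 CPM in the ablated libraries. It fell by 0.76 on the log2 scale (SE 0.15, edgeR adjusted p = 0.00586), under the minimum fold, and passed that adjusted p in all 16 alternatives. Entpd2 went the other way without overlap, from 24.1 ± 4.51 to 39.8 ± 4.82 CPM (SD, n = 3). Its log2 fold change was 0.72 ± 0.23 (SE, edgeR adjusted p = 0.0808). Slc17a9, the vesicular nucleotide transporter, had 0, 1.47 and 0 CPM against 1.92, 3.74 and 3.62 CPM (2.66 ± 1.52, edgeR adjusted p = 0.367). It was called without control replicate 2, the only control with a count (edgeR adjusted p = 0.0176), and by limma with a pseudocount of 1 TPM (limma adjusted p = 0.0196) and of 0.1 TPM (limma adjusted p = 0.0425). Lrrc8a, the core subunit of volume-regulated anion channels, differed by 0.43 ± 0.16 (edgeR adjusted p = 0.143) and passed the adjusted p in 2 of the 16 alternatives. P2rx7, the ATP-gated receptor that functionally couples to Panx1, differed by -0.06 ± 0.22 (edgeR adjusted p = 0.933). P2ry1, another purinergic receptor, had 0, 13 and 0 counts in control keratocytes and 61, 76 and 54 in the ablated libraries. Its difference was 3.55 ± 1.52 (edgeR adjusted p = 0.205), and it was called in the same settings as Slc17a9.

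**Figure D3:**
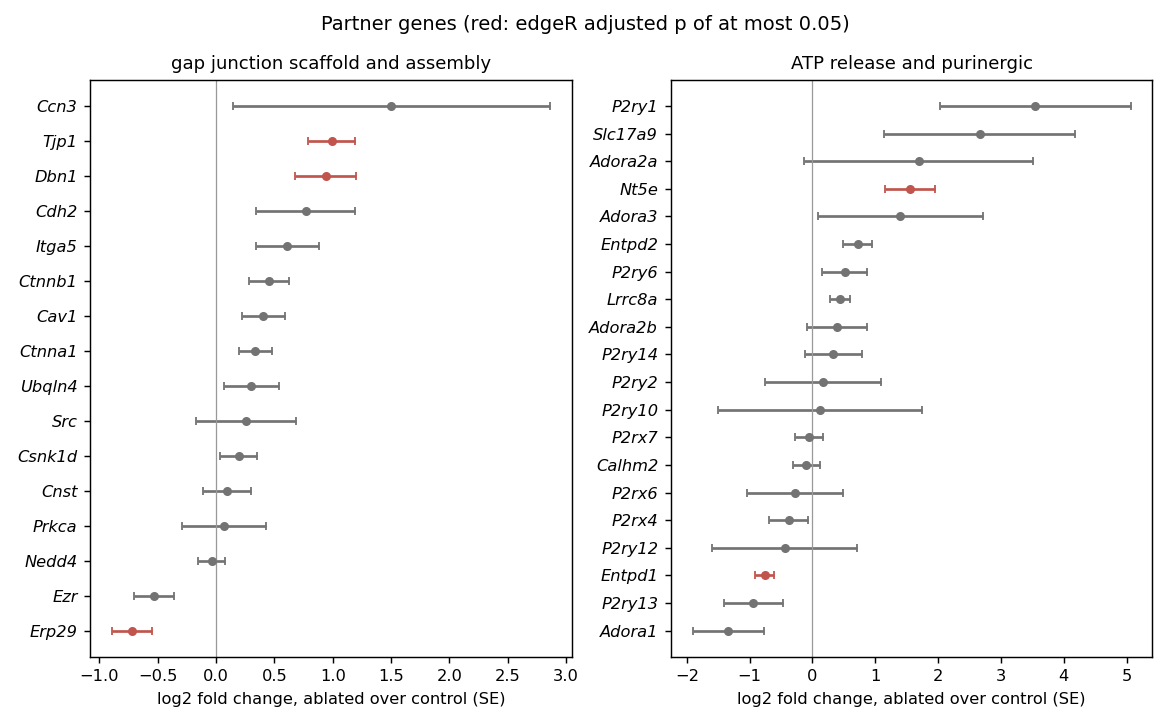
Log2 fold change (horizontal axes, Ptch1-ablated over control, with SE) of the tested genes for gap junction scaffold and assembly (left) and for ATP release and purinergic signaling (right), fitted over 3 control and 3 ablated libraries. Red marks an edgeR adjusted p of at most 0.05, reached by Tjp1, Dbn1 and Erp29 on the left and by Nt5e and Entpd1 on the right.

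Markers of other cell types that use these connexins were set beside them. Markers of corneal epithelium, where Gjb2 and Gjb5 are known to be expressed, summed to between 60.4 and 93.8 TPM in control keratocytes and to between 7.55 and 11.04 TPM in the ablated libraries. Of 9 tested, 4 were called lower, among them the basal keratins Krt5, Krt14 and Krt15, and 1 higher (Krt12, listed at 0 in all controls and at 1.26, 3.14 and 3.23 TPM in the ablated libraries). Dsp and Pkp1 were at 0 in all ablated libraries. The summed level of these markers was lower in the ablated libraries, in which Gjb5 was higher. Krt12 went the same way as Gjb5, with 0 counts in all controls and 21, 49 and 52 in the ablated libraries. Krt15 made up most of the control sum, and its mean fell from 47.7 to 0.48 TPM. Of the 9, 7 had a negative log2 fold change and 2 a positive one, Krt12 and Cdh1. The part of epithelial cells in the level of Gjb5 was not tested.

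Markers of vascular endothelium, in which Gja4, Gja5 and Gjc1 are known, summed to between 428 and 525 TPM in control keratocytes and between 784 and 826 TPM in the ablated libraries, and 5 of 10 were called higher, with none at 0. Vwf, the von Willebrand factor of endothelium, rose from a mean of 18.6 to 77.8 TPM, and Tie1 from 7.88 to 38.8 TPM, whereas Kdr stood at 195 and 171 TPM. Markers of mural cells summed to between 488 and 556 TPM in control keratocytes and between 963 and 1016 TPM in the ablated libraries, and 3 of 10 were called higher, with none at 0. Pdgfrb was the largest part in control, with means of 265 and 334 TPM and a log2 fold change of 0.11 (edgeR adjusted p = 0.735). Rgs5 rose from a mean of 121 to 254 TPM. Acta2, which the paper counts among fibroblast markers, rose from 83.4 to 249 TPM and was among those called. In the TMM-scaled edgeR fit 8 of the 10 endothelial markers were above 0 and 2 below. Those below were Kdr at -0.40 (edgeR adjusted p = 0.112) and Erg at -0.15 (edgeR adjusted p = 0.622), the most abundant of the list in control. The summed levels of both lists were higher in the ablated libraries, as were the means of Gja4, Gja5 and Gjc1. Gja5 and Gjc1 overlapped between the groups. The part of endothelial and mural cells in those levels was not tested.

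Markers of Schwann cells summed to between 124 and 146 TPM in control keratocytes and between 162 and 177 TPM in the ablated libraries. Like the other marker sums, these carry the higher median of all genes in ablated TPM (0.192 on the log2 scale, pseudocount of 1). In the TMM-scaled edgeR fit 4 of the 5 were above 0 and 1 below, Mbp at -0.17 (edgeR adjusted p = 0.674). Of the 5, 0 were called and 1 had an unadjusted p under 0.05. Gjc3 had a negative difference in that fit, with overlapping groups. Leukocyte markers overlapped between the groups, from 1429 to 1625 and from 1405 to 1798 TPM, and so did melanocyte markers, from 1.28 to 5.59 and from 2.48 to 5.83 TPM. Those of corneal endothelium also overlapped, from 319 to 377 and from 254 to 441 TPM, with 1 of 3 called higher (Col8a1, from a mean of 3.57 to 20.5 TPM). Col8a2 made up most of that sum, at 340 and 303 TPM. Slc4a11, a transporter of the corneal endothelium, had 0.70, 6.08 and 3.13 TPM in control and 17.1, 12.7 and 19.9 TPM in ablated keratocytes, with no overlap (edgeR adjusted p = 0.0541).

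The genes with the most similar profile over the 6 libraries were named by the root mean square difference between centred log2 CPM. For Gja1 these were Slc29a3, a nucleoside transporter, at 0.0973, Atg10, an autophagy enzyme, at 0.0992, and Smoc2, a matricellular protein, at 0.102. For Gja4 they were Mgst3 at 0.0562, Pcdhgb6 at 0.0755 and Cic at 0.0888.

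For Gjb5 the nearest were Trhde, a peptidase, at 0.176, Fam155a at 0.227 and Scg2, a granin, at 0.504, all with control means of at most 0.0292 CPM. For Gjc1 they were Pir at 0.370, Zkscan16 at 0.372 and Mboat1 at 0.432. For Panx1 they were Trp53tg5 at 0.374, Palb2 at 0.542 and Dlx2 at 0.607, and this larger distance matched the scatter of Panx1 within each group. Gja5, Gjb2 and Panx3 had too few counts for this measure.

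The counts of the 8 genes gave no sign of reads split between genes, which whole values alone cannot show. None of their 48 count values was fractional, and 35 of these were above 0. Gjc3, Gjd3 and Gje1 had fractional counts, and 18.6% of all values in the table were not whole. The longest stretch of identical bases between the longest coding transcript of any of the 8 genes and that of another reported connexin or pannexin was 28 bases, between Gjc1 and Gjc3.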

How the data were processed

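RNA was sequenced from keratocytes sorted by flow cytometry in 6 samples, 3 control and 3 Ptch1-ablated, assigned to their groups and replicate numbers by title. The submitters' processing notes name Bowtie2 (2.2.5), RSEM (1.2.12) and the mouse build mm9. The annotation release and strandedness are not given in the sources used here. The labels name an Illumina TruSeq kit, whereas the methods describe ribosomal RNA depletion and a BGISEQ platform. The deposited table holds expected counts per gene that the authors did not normalize, TPM values that the authors scaled by length and library, and FPKM values from the authors that were not used. The authors' group averages were not used either. Of the expected counts 18.6% were not whole (tolerance 1e-06), and all were rounded.

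Genes were filtered with filterByExpr (13888 of 17606 kept), scaling was by TMM, and the test was the quasi-likelihood test of edgeR (two-sided, no covariates) with p adjusted by Benjamini-Hochberg over all genes tested. Genes with a fold change of 2 or more and an adjusted p not above 0.05 were called. Scripts were tested on simulated data. Permuting 3 against 3 libraries exactly gives no p below 0.1 and was not used. The replicate numbers were not taken as pairs. The correlations of the deviations of same-numbered libraries from their group means were -0.0461, -0.0489 and 0.0388. With 3 libraries per group, these values cannot tell whether samples were handled in pairs.

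The 8 genes and all lists were chosen with earlier results of these data known. Some genes are not reported here and were left out of the lists, sums, orders and profile comparisons, though not of the fit over all genes. Named were the 8 genes, the other family genes, the called scaffold, ATP and neighbouring genes with Tjp1, Cdh2, Slc17a9, P2rx7 and Lrrc8a, and the 3 genes most alike for each gene with at least 10 counts in every library of its higher group (log2 CPM, prior count 2). Gli1, Hhip, Dbn1, Erp29, Entpd1, Entpd2, P2ry1, Siae, Zscan20, Tlr12, Tmem35b, Zmym6 and single markers were named after their values were seen. Neighbour order and promoters came from RefSeq (GRCm38.p6), whose coordinates were not set against mm9. Of the 17606 gene identifiers 17478 matched it. Transcripts came from GENCODE. The alternatives were RLE, upper quartile and no scaling beyond library totals, no filter on low counts, a minimum mean count of 50, each library left out, 2 libraries left out, the replicate block, limma on log2(TPM + 0.1) or log2(TPM + 1), DESeq2, and no minimum fold. Versions were Python 3.11.15, pandas 2.3.3, matplotlib 3.10.9, DESeq2 1.42.0, limma 3.58.1, edgeR 4.0.16 and R 4.3.3.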

Additional observations from a re-analysis of the deposited data

How the results depend on the processing

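With between 0 and 199 counts in every library, the levels of Gja5, Gjb2, Gjc1 and Panx1 were limited by depth and by scatter between libraries. Across the 16 alternatives the log2 fold change ran from -1.10 to -0.75 for Gja1, from 0.37 to 0.84 for Gja4 and from 1.37 to 3.28 for Gjc1. For Panx1 it ran from -0.97 (without ablated replicate 1) to 1.16. Across 15 alternatives, since a mean count of 50 removed these genes, it ran from 0.89 to 8.56 for Gja5 (highest without control replicate 3) and from 0.53 to 4.25 for Gjb2. Scaling by library totals only, limma on log2(TPM + 1) and limma on log2(TPM + 0.1) moved the median of all genes to 0.173, 0.192 and 0.221, and relative to it Gja1 stood at -0.97, -0.94 and -0.97. Dropping the minimum fold gave 1178 genes in place of 763, 3 scaffold genes in place of 0, 2 ATP genes in place of 1 and 2 neighbours in place of 1. The count of other connexins and pannexins called was 0 in every setting. The count of neighbours called was 1 (Csmd2) in every setting that kept the minimum fold, the replicate block included. With that block the log2 fold change of Csmd2 was 5.72 (edgeR adjusted p = 0.000162), although the numbers are not known to mark pairs. Scaffold genes called numbered 2 with library totals only, 1 with 2 libraries left out, 2 with each limma fit and between 0 and 2 without 1 library. ATP genes called numbered 0 without the filter, 0 with the replicate block, 0 with 2 libraries left out, 3 with each limma fit and between 0 and 2 without 1 library. Library totals only and leaving out control replicate 1 together with ablated replicate 2 were chosen after seeing the data. The causes of these moves were not tested.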
